A study of Caenorhabditis elegans with 57 samples.

Results

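The 300 Caenorhabditis elegans genes described here are those at which the sperm-inherited allele had the largest falls in its share of H3K27me3 in germlines of worms whose father was mutant for mes-3. They were chosen from the H3K27me3 libraries of first-cross hermaphrodite germlines, with both replicates of a group summed. A gene was eligible if it had at least 60 allele-assigned reads in the offspring of mes-3 mutant fathers and in those of heterozygous fathers. Its sperm-allele share also had to lie between 0.4 and 0.6 in the offspring of heterozygous fathers. Of 45624 genes counted, 9596 met the read limit and 7874 met both, and the 300 with the largest fall in share were taken. The first-cross H3K27me3 values are therefore a description of the choice, without a test. RNA, H3K36me3 and the second cross, with its F1 and F2 worms, come from other libraries.

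H3K27me3 is a repressive mark of histone H3 placed by the Polycomb complex PRC2, which in worms is formed by MES-2, MES-3 and MES-6. Sperm of C. elegans keep histones and can pass marked nucleosomes to the embryo, where PRC2 from the oocyte can copy the mark onto daughter chromatids of the same chromosome. H3K36me3 is placed by MES-4 and MET-1 on genes that are or were transcribed in the germline, and it and H3K27me3 occupy largely separate regions of germline chromatin.

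Mothers of both crosses were fem-2(b245ts) worms in the Hawaiian strain CB4856, so that oocyte and sperm alleles differ at sequence variants. First-cross fathers were him-8(e1489) males of the N2 strain. They were homozygous for mes-3(bn35), giving offspring called M+P-, or carried it over the balancer hT2-GFP, giving M+P+. The offspring of both kinds had the same genotype, heterozygous for him-8(e1489), for fem-2(b245ts) and for the PRC2 mutation mes-3(bn35). RNA came from germlines of hermaphrodites, with 2 libraries in each group, from germlines of males, with 4, and from L1 larvae, with 3. Second-cross fathers were glh-1::GFP mes-3(bn199); fem-2(b245ts) males or the same with the mutation over hT2-GFP, and the F1 were heterozygous for mes-3(bn199) with glh-1::GFP (sams24) and fem-2(b245ts). The labels state no strain background for these fathers. F1 germlines gave 3 RNA libraries per group. Germlines of F2 worms of the F1 genotype, labelled GM+GP-, came from an F1-type mother with no father, and gave 3 RNA libraries. In these F2 the sperm allele means the grandpaternal sequence, which segregates among the pooled worms. Fathers were represented by germlines of males mutant for both mes-3(bn35) and him-8(e1489), from heterozygous mothers (M+Z-), and of him-8(e1489) males, which stood for wild type, with 3 RNA libraries each. CUT&RUN, which releases antibody-bound DNA with a nuclease, was done with 2 libraries per group and mark. All germline samples were the distal gonad of day 1 adults grown at 20 °C, with fem-2 females raised at 25 °C. For the L1 larvae 20 °C is given too, and for maintenance of fem-2 worms 15 °C.

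RNA libraries held 5706650 to 19191934 counts, H3K27me3 libraries 2797547 to 25714782 and H3K36me3 libraries 1701400 to 41980395. Allele-assigned reads were fewer, with 174826 to 431318 in 26 RNA libraries. H3K36me3 of first-cross M+P+ replicate 2 stood apart, with 22807 genes detected against 28155 to 28937 in the other 3 libraries of that comparison. RNA of second-cross F1 M+P- replicate 3 had 1400 of 7222 genes with a mean count of at least 20 at 0, where no other RNA library of that comparison had more than 8. Among these genes were 9 of the 99 members that reached this mean. RNA of first-cross male M+P+ replicate 3 held 3020 CPM (counts scaled to the library total) summed over muscle genes other than ketn-1, against 34.2 to 38.8 CPM in the other M+P+ males. Several results that rest on these libraries are given with and without them. For first-cross H3K36me3, the counts of genes whose groups lie apart and the deposited scores are given only with M+P+ replicate 2. RNA of mes-3 itself, the gene mutated in the fathers, was not called changed in any comparison. In father germlines it stood at 41.9, 35.2 and 20.4 CPM in mes-3 mutants and at 46.5, 40.5 and 38.8 CPM in him-8 males, so transcript level did not separate the genotypes.

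The largest falls in the libraries of the choice were at sra-14, a chemoreceptor gene, and bli-6, a cuticle collagen gene. The sperm allele of sra-14 held 13% of reads in M+P- and 53.8% in M+P+, and that of bli-6 held 13.8% and 53.1%. The next 8 were dbd-7, T13C2.7, ZK353.4, T10D4.7, Y73B6BL.27, maa-1 (an acyl-CoA-binding protein), M151.4 and shl-1 (a Shal-type potassium channel). The limit of the list cut through near-equal values. The last genes inside it, glb-10, JC8.16 and pamn-1, had falls of 22.0128, 22.0058 and 22.0003 percentage points, and the first outside, clp-3, srh-71 and D1046.4, had falls of 22, 21.9961 and 21.9472 points. The median member had a fall of 25.4 points and the median other eligible gene a fall of 4.4 points.

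Of the 300 members, 291 matched the RefSeq gene table, and 274 of these were protein-coding, 11 pseudogenes, 5 ncRNAs and 1 a lncRNA. Members sat unevenly on the chromosomes. They made up 8.75% of eligible genes on chromosome I (70 of 800), 6.90% on III (45 of 652) and 6.45% on IV (75 of 1162). They made up 3.36% on II, 2.38% on V and 0.133% on X, where only 2 of 1501 eligible genes were members. Members also lay next to each other. Among the 291 with a position, 91 had a neighbouring eligible gene that was a member too, against 33 of 295 in an equally long list of eligible genes with the smallest difference in share. The longest run was sre-23, ZK265.7, T19A6.1 and F10D11.6 on chromosome I. Runs of 3 included C47F8.7, nhr-81 and nhr-165 on chromosome I and lido-7, lido-8 and lido-9 on II. Reads of adjacent genes share chromatin domains, so such members are not independent observations. By gene name the largest family was the nuclear hormone receptors (7 of 155 eligible nhr genes: nhr-4, nhr-44, nhr-81, nhr-104, nhr-165, nhr-170 and nhr-207). The col collagen, lido, slc transporter and sre chemoreceptor names each gave 3.

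In the second cross, whose libraries had no part in the choice, the sperm allele of these genes again held the smaller share of H3K27me3 in M+P- F1 germlines. The median share over members was 33.5% and 40.9% in the 2 M+P- libraries and 45.5% and 48.8% in the 2 M+P+ libraries. The other eligible genes had medians of 45.2% and 48.5% in M+P- and 48.5% and 50.7% in M+P+. With replicates summed, the share was lower in M+P- than in M+P+ for 236 of 298 members (79.2%), by a median of 9.5 points, against 58.9% of other eligible genes and a median of 2.6 points. Both M+P- libraries lay below both M+P+ libraries for 92 of 298 members (30.9%), where the same held for 22.8% of all genes with at least 20 allele reads in each group and 22.2% of the other eligible genes. The opposite order held for 16 members, where it held for 11.4% of all genes with enough reads and 11.98% of the other eligible genes. The 25.4 points of the first cross were taken as the largest falls and are no estimate of the second.

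**Figure D1:**
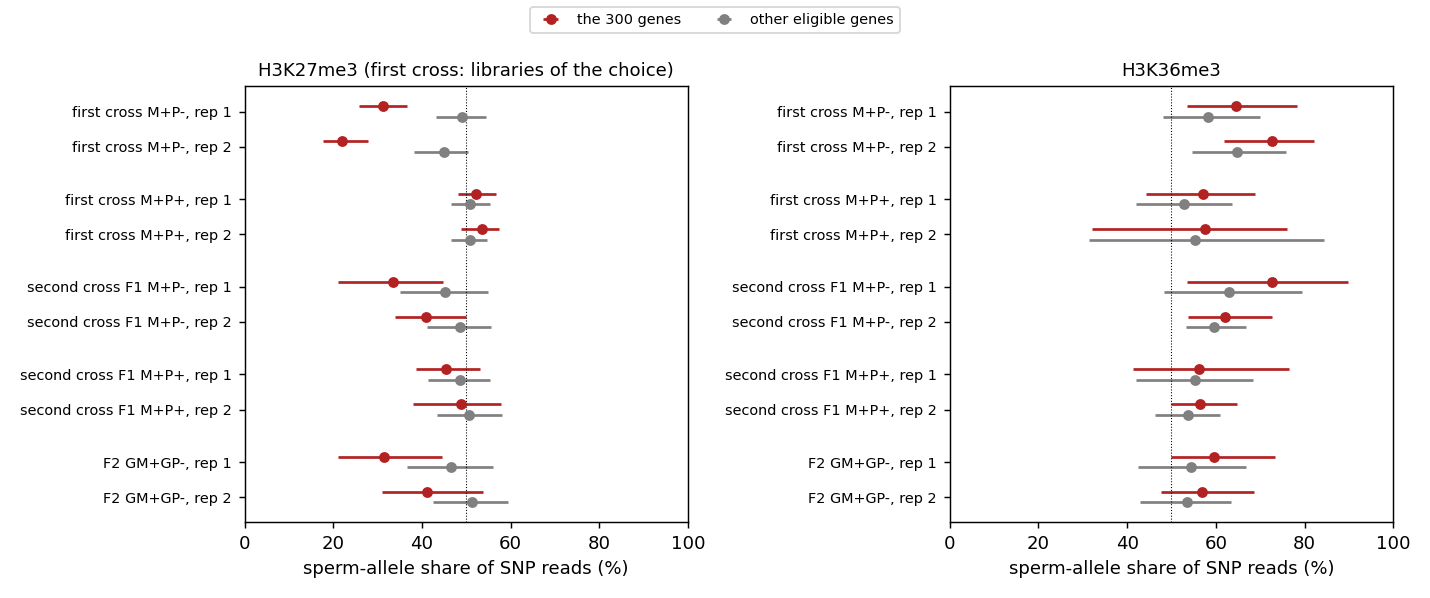
Share of allele-assigned CUT&RUN reads on the sperm allele (percent) in each of 10 H3K27me3 libraries (left) and 10 H3K36me3 libraries (right), with points at the median over genes and bars from the first to the third quartile, for members and for the other eligible genes. Members sit below the other genes in every M+P- and F2 H3K27me3 library, down to a median of 22% in a library of the choice and 31.5% in F2, and above them in every H3K36me3 library. They also sit below in both second-cross M+P+ H3K27me3 libraries, by less (45.5% against 48.5% and 48.8% against 50.7%).

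Single members showed how much these shares vary between libraries. For Y37A1A.2 on chromosome IV the sperm allele held 24.7% and 35.0% of H3K27me3 reads in F1 M+P- and 57.1% and 47.8% in M+P+. For alh-5, of the aldehyde dehydrogenase family, it held 32.2% and 25.8% in M+P- and 56.2% and 42.9% in M+P+, and for T10D4.7 17.6% and 16.7% against 63.6% and 76.9%. In these genes the groups lay apart. At qui-1, a WD-repeat gene needed for avoidance of quinine, the shares of 24.8% and 47.9% in M+P- lay below those of 48.1% and 49.0% in M+P+ by less than the spread between M+P- replicates. At ketn-1, the gene of the titin-like muscle protein kettin, the shares of 40.9% and 47.3% in M+P- overlapped those of 56.4% and 41.9% in M+P+. The members with the smallest change were lgc-44, cacn-1 (cactin) and Y23H5B.2. Their replicates disagreed, as with Y23H5B.2 at 37.7% and 59.1% in M+P- and 63.8% and 23.1% in M+P+.

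No gene was called in the test of this allele balance. With edgeR's quasi-likelihood test and Benjamini-Hochberg adjustment over 11027 genes, 0 of 287 members tested passed an adjusted p of 0.05 (0% of all genes), and limma on log2 ratios also called 0. At an unadjusted p under 0.05 by edgeR, 25 members were lower and 0 higher, where 465 of 11027 genes were lower and 97 higher. A log2 change below 0 was found in 228 of 287 members, with a median of −0.62, against −0.20 over all genes. Members were called when M+P- replicate 2 was left out. That fit held a single M+P- library, and its share over all genes is not given here. Whole-gene H3K27me3, summed over both alleles, gave 0 calls among 300 members and 0% of all genes by edgeR and 0 members by DESeq2. Here 14 members were lower and 1 higher at an unadjusted p under 0.05 by edgeR, where 317 of 29099 genes were lower and 298 higher. The median log2 change was −0.09 over members and 0.00 over all genes.

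F2 germlines of the M+P- line, in which the allele had passed through an F1 germline, had a low sperm-allele share. The median over members was 31.5% and 41.2% in the 2 F2 libraries, against 46.5% and 51.2% for the other eligible genes. The F2 share was below that of F1 M+P+ for 235 of 298 members (78.9%), by a median of 11 points, against 53.2% of other genes and 1.0 point. Both F2 libraries lay below both F1 M+P+ libraries for 95 of 298 members (31.9%), where this held for 18.1% of all genes with enough reads and 17.9% of the other eligible genes. They lay above for 14 members, where this held for 15.7% of all genes and 16.1% of the other eligible genes. Both comparisons use the same F1 M+P+ libraries. No F2 line from an M+P+ grandfather was analysed here, so generation and grandpaternal mark cannot be told apart.

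Because the grandpaternal chromosomes segregate in F2 and each pool holds its own sample of them, the share was also read per chromosome. In replicate 1 members stood below the other eligible genes of the same chromosome at 29.4% against 46.4% on I, 26.2% against 42.3% on II and 29.6% against 51.3% on III. They stood at 28.3% against 38.4% on IV and 42.4% against 47% on V. In replicate 2 the medians were 37.9% against 46.8% on I, 43.0% against 54.2% on II and 35.5% against 47.7% on III. On IV they were 54.2% against 55.0%, a gap of less than a point, and on V 34.4% against 47.4%. Members were the lower set on each of the 5 autosomes in both libraries. In F1 M+P+ replicate 1 they were also the lower set on each autosome, with differences from −4.9 to −0.1 points. In F1 M+P+ replicate 2 the differences were −4.2 to −1.0 points on I, III, IV and V and 0.4 points on II.

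Single genes in F2 again spread widely. Tankyrase gene tank-1, whose protein is a poly(ADP-ribose) polymerase, had a sperm-allele share of 30.5% in both F2 libraries and of 43.1% and 43.3% in F1 M+P+, so its groups did not overlap. Y37A1A.2 stood at 27.7% and 42.7% and alh-5 at 40% and 27.5% in F2, again below their F1 M+P+ values. At bli-6 the 2 F2 libraries disagreed, at 11.1% and 63.6%, on few reads. The allele-balance test of F2 against F1 M+P+ called 0 of 289 members and 0% of all genes by edgeR, and 0 members by limma. At an unadjusted p under 0.05 by edgeR it found 25 members lower and 0 higher, where 256 of 10839 genes were lower and 273 higher. Changes below 0 made up 230 of 289, with a median of −0.67, against −0.07 over all genes. The smallest absolute changes among members tested were at F36D4.1, ketn-1 and lido-7. Members were also called lower when either F2 library was left out. Those fits held a single F2 library, and their shares over all genes are not given here. Against F1 M+P- the median was −0.01 over 291 members, with 0 called by edgeR and by limma and 0% of all genes called. At an unadjusted p under 0.05 by edgeR, 5 members were higher and 3 lower, where 283 of 11060 genes were higher and 87 lower. Leaving out F2 replicate 2 brought a call there too, again with a single F2 library.

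Total H3K27me3 over members fell in F2. By edgeR's quasi-likelihood test against F1 M+P+, 38 of 300 members were called lower and 1 higher (12.7%), where 9.91% of all 29073 genes were called lower, 0.65% higher and 10.6% in all, so the share of members called was near that of all genes. The median log2 change was −0.17 over members, 0.02 over all genes and 0.12 over the other eligible genes, and 238 of 300 members lay below 0. T19A6.1 stood at 103.9 and 116.8 CPM in F1 M+P+, 84.1 and 135 CPM in F1 M+P- and 49.3 and 66.5 CPM in F2, so both F2 libraries lay below the other 4. Its log2 change against M+P+ was −0.93 ± 0.14 (SE, n = 2 against 2, adjusted p = 0.000355 by edgeR). The gene nol-9, related to a human kinase of rRNA processing, stood at 66.7 and 81.7 CPM in F1 M+P+ and 39.3 and 41.1 CPM in F2 (log2 change −0.89 ± 0.14, adjusted p = 0.000558 by edgeR).

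Other members with the largest falls were psmd-9, a proteasome assembly chaperone, at 10.9 and 14.3 CPM against 5.53 and 6.92 CPM in F2, and apr-1, the APC protein of Wnt signalling, at 42.3 and 41.3 CPM against 19.8 and 25.6 CPM. The list of the 6 largest also held scm-1 and moc-2 (molybdenum cofactor synthesis). The call of psmd-9 was lost without F1 M+P+ replicate 2 (adjusted p = 0.168 by edgeR) or F2 replicate 1 (adjusted p = 0.0503), and that of moc-2 without F1 M+P+ replicate 2, where its log2 change was −0.58 (adjusted p = 0.357). The riser, K09H9.8, went from 31.5 and 33.7 CPM to 49.2 and 43.2 CPM (adjusted p = 0.0399 by edgeR). It lost its call without either F1 M+P+ library or without F2 replicate 1, with adjusted p between 0.138 and 0.211. Without F1 M+P+ replicate 2, 15 members in all were called lower and 0 higher. RNA of mes-3 was not called changed in F2, and its own H3K27me3 count was lower there (log2 change −0.79 ± 0.16, adjusted p = 0.00242 by edgeR). This was not particular to mes-3. The count was also called lower at met-1 (−0.89 ± 0.13), mes-2 (−0.71 ± 0.18), mes-4 (−0.57 ± 0.16) and jmjd-1.2 (−0.71 ± 0.18), and at 9.91% of all genes. It was not called at mes-6, utx-1, jmjd-3.1, jmjd-3.2 or jmjd-3.3.

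RNA of the members rose in first-cross hermaphrodite germlines of M+P- worms. Of 300 members, 140 passed the filter on low counts, and a gene expressed in 1 group alone can pass it. By edgeR's quasi-likelihood test with Benjamini-Hochberg adjustment over 8409 genes, 52 of these rose and 1 fell (37.1% higher), where 5.11% of all genes rose, 4.63% fell and 9.74% were called in all. Among 2127 other eligible genes tested, 9.87% rose and 10.7% fell. The median log2 change was 0.57 over members tested and 0.00 over all genes. Over all 300 members, untested ones included, the median level was 0.67 CPM in M+P- and 0.28 CPM in M+P+. The count depended on which libraries entered, with 34 members called when M+P- replicate 1 was left out and 30 when M+P+ replicate 2 was.

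**Figure D2:**
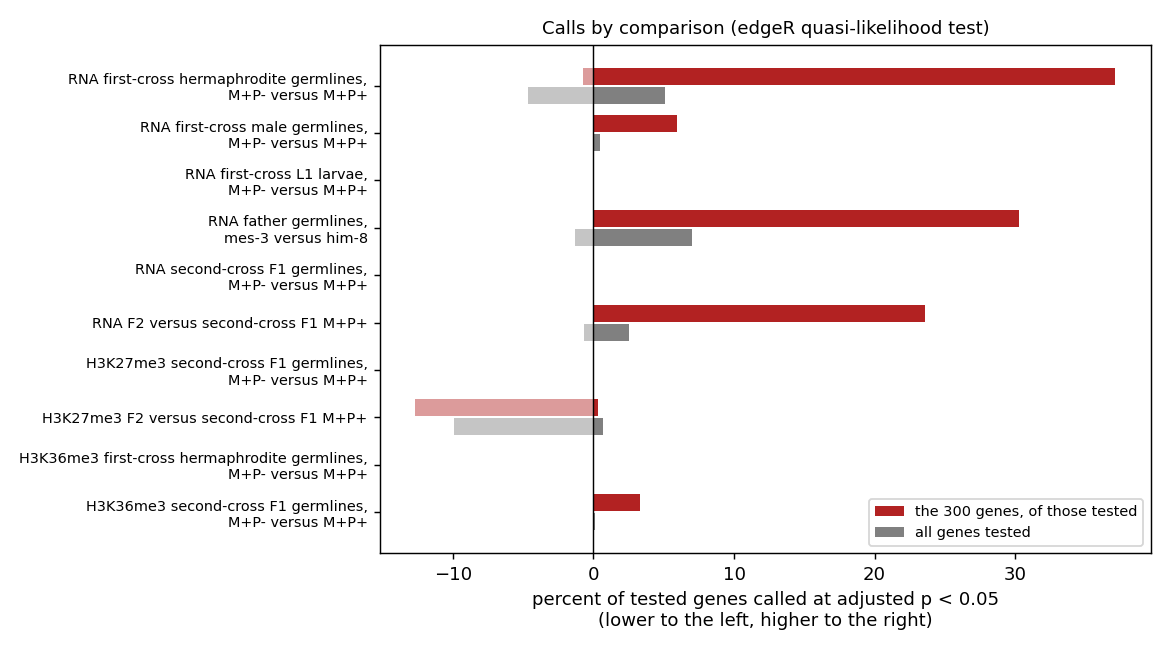
Percent of tested genes called higher or lower (edgeR quasi-likelihood test, Benjamini-Hochberg adjusted p under 0.05) among members and among all genes tested, in 10 comparisons of RNA and whole-gene chromatin counts. Members called higher reach 37.1% in first-cross hermaphrodite RNA, 30.3% in RNA of mes-3 fathers and 23.6% in RNA of F2.

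The largest rise among members at high level was at ketn-1 on chromosome V. It had 537 and 422 CPM in M+P- and 16.4 and 0.893 CPM in M+P+, a log2 change of 5.86 ± 0.44 (SE, n = 2 against 2, adjusted p = 8.14e-06 by edgeR). The M+P+ libraries differed more from each other than the M+P- libraries did in relative terms, and the groups lay far apart. Expression of kettin is a feature of muscle, and other muscle genes moved too. Besides ketn-1, unc-89 and ttn-1 were called higher of 11 muscle markers tested, and the 15 markers other than ketn-1 summed to 96.9 and 96.5 CPM in M+P- and 67.3 and 63.9 CPM in M+P+. The muscle regulator hlh-1 was at 0 in every library, whole L1 larvae included, where the muscle markers summed to 23880 to 33510 CPM. Its count is therefore not read here. The part of muscle RNA in the ketn-1 result was not tested.

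The gene qui-1 on chromosome IV was nearly silent without the change, at 0.508 and 0 CPM in M+P+ and 19.7 and 20.0 CPM in M+P- (log2 change 6.32 ± 0.49, adjusted p = 8.58e-06 by edgeR). F58D12.3 on chromosome V had 16.5 and 22.5 CPM in M+P- and 0.254 and 0.298 CPM in M+P+ (log2 change 6.08 ± 0.38, adjusted p = 2.07e-06). In both genes each M+P- library was far above each M+P+ library. The gene alh-5 went the same way, with 7.97 and 10.1 CPM against 0.593 and 0.223 CPM (log2 change 4.47 ± 0.44, adjusted p = 4.98e-05). Y49F6A.5 on chromosome II had 66.1 and 39.2 CPM against 4.57 and 2.53 CPM (log2 change 3.90 ± 0.28, adjusted p = 5.56e-06).

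The other 7 of the 12 largest risers were lowly expressed, with M+P- levels between 1.49 and 7.70 CPM. The nuclear hormone receptor nhr-165 had 1.90 and 1.49 CPM in M+P- and no count in either M+P+ library. Its mean was at least 14.3-fold higher, taking 3 counts over the M+P+ group as the limit a count of 0 allows. Its neighbour nhr-81 had 5.25 and 5.55 CPM against 0.423 and 0 CPM, and the O-acyltransferase homolog oac-52 had 1.90 and 2.82 CPM against 0.0846 and 0 CPM. Y37A1A.2 had 7.42 and 4.39 CPM against 0.0846 and 0.149 CPM. The metabotropic glutamate receptor family member mgl-3 had 3.35 and 3.31 CPM against 0.339 and 0.149 CPM, and Y45F10B.13 and F10D11.6 completed the group. None of these 7 had overlapping groups, and their adjusted p-values by edgeR ran from 9.29e-05 to 0.0008.

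Members already expressed in M+P+ germlines rose by smaller factors. The gene tank-1 had 272 and 280 CPM in M+P- and 101 and 71.0 CPM in M+P+ (log2 change 1.69 ± 0.11, adjusted p = 2.07e-06 by edgeR). The calpain gene tra-3, of the sex determination pathway, had 94.5 and 96.8 CPM against 34.7 and 29.9 CPM (log2 change 1.57 ± 0.09, adjusted p = 2.07e-06). F25E5.1 had 176 and 180 CPM against 64.1 and 73.9 CPM (log2 change 1.36 ± 0.09, adjusted p = 2.07e-06). Replicates of these 3 genes were close and the groups well apart. The gene dlk-1, a kinase known for axon regeneration, had 68.5 and 59.1 CPM against 20.5 and 9.98 CPM (log2 change 2.08 ± 0.22). The adjacent lido-7, lido-8 and lido-9 rose by log2 0.89 ± 0.18, 0.84 ± 0.15 and 0.57 ± 0.14. The member that fell was smg-6, an endonuclease of nonsense-mediated decay, with 131 and 134 CPM against 164 and 157 CPM (log2 change −0.28 ± 0.07, adjusted p = 0.0179 by edgeR). Its call was lost without M+P- replicate 1 (adjusted p = 0.0759) or either M+P+ library (0.138 and 0.114), and by DESeq2.

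Signs of other tissues were read beside these rises. The 16 germline markers summed to 15300 and 15050 CPM in M+P- and 15380 and 15770 CPM in M+P+, with none called. Intestine markers summed to 86.1 and 254 CPM against 36.8 and 55.0 CPM, with 9 of 10 tested called higher. Neuron markers summed to 187 and 199 CPM against 193 and 175 CPM, with 5 called higher and 1 lower of 11 tested. Only ketn-1 of the members is on any of the tissue lists. The part of these tissues in the members' RNA was not tested, and in bulk germlines more cells of a type and more RNA per cell cannot be told apart. Among chromatin regulators, jmjd-3.1, an H3K27 demethylase gene that is no member, was lower in M+P- (1.54 and 1.16 CPM against 6.52 and 5.66 CPM, log2 change −2.17 ± 0.35, adjusted p = 0.00154 by edgeR).

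Sequence variants gave the allele of origin of RNA reads. Of 170 members with exonic variants, only 27 to 32 had at least 20 allele reads in a hermaphrodite library. In these the median sperm-allele share of RNA was 69.0% and 69.1% in M+P- and 52.5% and 51.0% in M+P+, against 50.8% to 53.1% for the other eligible genes in all 4 libraries. In the edgeR test of allele balance 6 of 30 members tested were called higher and 0 lower (20.0%), where 0.416% of 1921 genes were called. They were tank-1, T10D4.6, lido-7, lido-9, F25E5.1 and sma-1. Membership of T10D4.6 rested on M+P+ replicate 2. Its H3K27me3 sperm-allele share in the libraries of the choice was 18.7% and 57.1% in M+P+ and 21.1% and 18.8% in M+P-.

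The sperm allele of tank-1 gave 87.4% and 87.2% of its RNA reads in M+P- and 53.6% and 38% in M+P+ (log2 ratio change 3.00 ± 0.39, adjusted p = 1.19e-05 by edgeR). That of T10D4.6 gave 90.2% and 91.9% against 49.2% and 51.4% (log2 ratio change 3.32 ± 0.47, adjusted p = 2.78e-05). In both genes the M+P- libraries were nearly equal and far from M+P+. That of sma-1, the βH-spectrin gene of epithelial shape, gave 76.4% and 75.5% against 38.6% and 38.5% (log2 ratio change 2.32 ± 0.51, adjusted p = 0.0199), with total RNA only modestly higher at 260 and 203 CPM against 194 and 148 CPM. That of lido-7 gave 86.5% and 83.8% against 58.1% and 37.8%, that of F25E5.1 75.7% and 89.3% against 40.7% and 51.9%, and that of lido-9 69.6% and 84.4% against 38.5% and 51.0%. The groups did not overlap in any of the 6. The test needs all 4 libraries. With either M+P+ library left out 0 of the 6 were called, with M+P- replicate 2 left out 3 were, and limma on log2 ratios called 0. For qui-1, F58D12.3 and other genes nearly silent in M+P+, allele reads were too few to test, and ketn-1 had 94.1% and 88.2% of its reads on the sperm allele in M+P- but only 5 and 0 allele reads in M+P+.

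**Figure D3:**
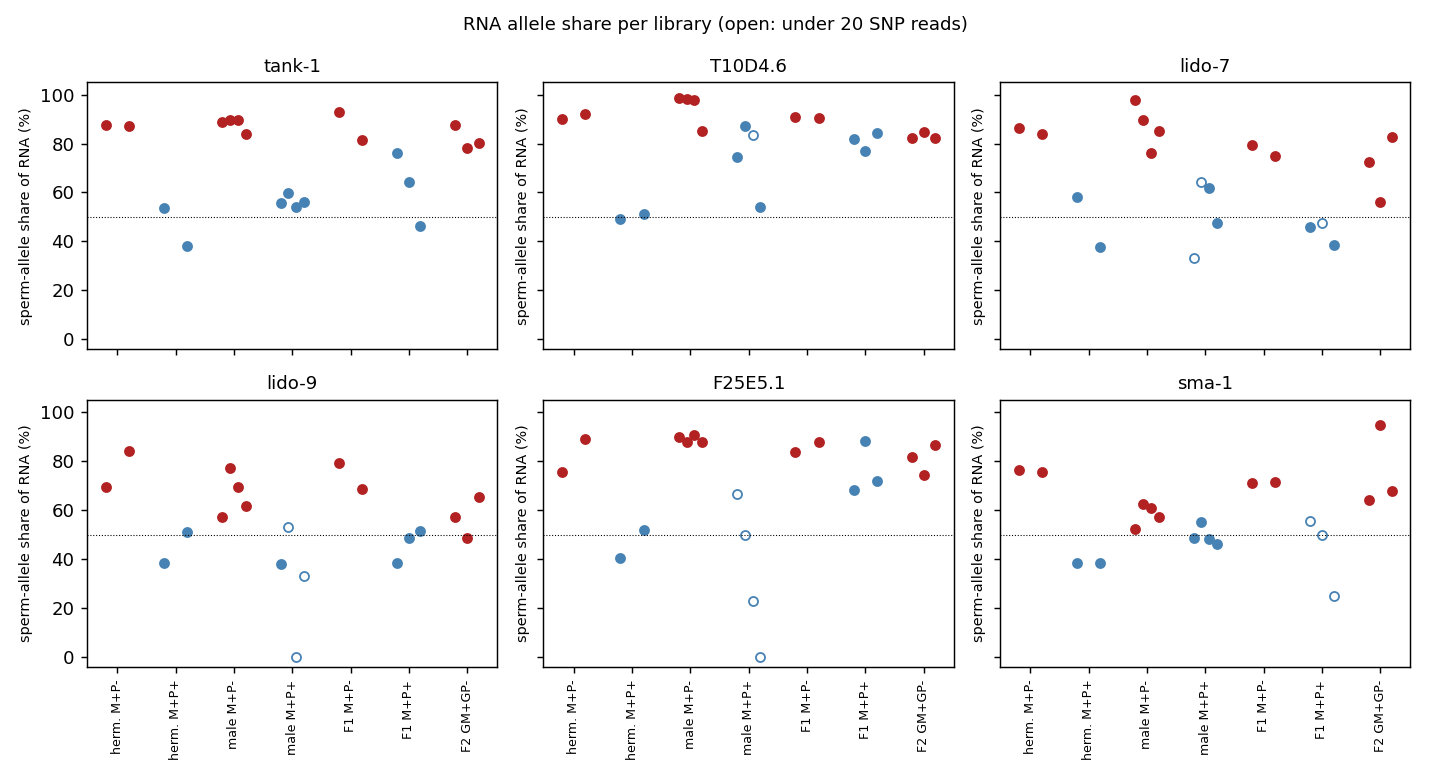
Percent of allele-assigned RNA reads on the sperm allele in each library for tank-1, T10D4.6, lido-7, lido-9, F25E5.1 and sma-1, with 1 point per library, by group, open where under 20 reads. In first-cross hermaphrodites M+P- lies between 69.6% and 91.9% and M+P+ between 37.8% and 58.1%.

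First-cross male germlines showed the same direction in fewer genes. Of 169 members that passed the filter, 10 rose and 0 fell (5.92%), where 0.49% of 9189 genes rose and none fell, and the median log2 change was 0.10 over members and −0.03 over all genes. All 10 were also among the 53 called in hermaphrodites (18.9% of those). They were F58D12.3, F25E5.1, Y54G2A.37, T05C3.6, Y49F6A.5, M151.4, F20G2.7, nhr-81, dex-1 (of dendrite anchoring) and nas-14 (an astacin metalloprotease). The overlap over all genes called in both sexes is not given here. F25E5.1 had 150, 130, 126 and 109 CPM in M+P- and 9.07, 19.7, 20.0 and 16.3 CPM in M+P+ (log2 change 2.95 ± 0.25, n = 4 against 4, adjusted p = 0.00745 by edgeR). Y54G2A.37 had 7, 7.87, 7.89 and 6.24 CPM against 0.218, 0.157, 0.340 and 0.429 CPM (log2 change 4.58 ± 0.39, adjusted p = 0.00745). Neither gene had overlapping groups. F58D12.3 had 15.7, 10.5, 9.82 and 9.63 CPM against 0.290, 0, 0.0849 and 0.0859 CPM (log2 change 6.45 ± 0.72, adjusted p = 0.0125). Y49F6A.5 had 8.54, 5.14, 8.38 and 3.76 CPM against 0.0725 CPM in 1 M+P+ library and 0 in the other 3.

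One control library decided much of the male count. In M+P+ replicate 3, which held the high muscle signal, ketn-1 was at 217 CPM and F32B5.7 at 16.6 CPM, while the other 3 M+P+ libraries held 0.472 to 0.725 CPM of ketn-1 and 0.435 to 4.64 CPM of F32B5.7. M+P- males had 514, 253, 481 and 574 CPM of ketn-1, all above all M+P+ libraries, and the gene was not called (log2 change 3.02 ± 1.76, adjusted p = 1.00 by edgeR). Likewise qui-1 had 14.8, 7.42, 6.07 and 7.89 CPM against 0, 0, 1.44 and 0 CPM (adjusted p = 0.598). Without M+P+ replicate 3, 28 members were called, all higher, and the share over all genes in that fit is not given here. Without other single libraries the count dropped to 6 (M+P- replicate 1), 4 (M+P- replicate 2), 1 (M+P- replicate 3), 2 (M+P- replicate 4), 3 (M+P+ replicate 2) or 2 (M+P+ replicate 4). Y54G2A.37 lost its call only without M+P- replicate 3 (adjusted p = 0.0662). F58D12.3 and Y49F6A.5 lost theirs without any of 4 libraries, M+P- replicates 3 and 4 and M+P+ replicate 4 among them, with adjusted p between 0.0533 and 0.0898, and M151.4, nhr-81 and F20G2.7 lost theirs without any of 6 or 7 (adjusted p from 0.0633 to 0.227). Muscle markers other than ketn-1 summed to 386, 89.98, 190 and 72.2 CPM in M+P- males, and their part was not tested.

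In males too the RNA came more from the sperm allele. The median share over members with at least 20 reads was 57.1%, 56.8%, 59.4% and 57.3% in M+P- and 50.0%, 52.2%, 50.0% and 50.0% in M+P+, so the groups did not overlap. Of 36 members tested 4 were called higher (11.1%), where 0.28% of 2141 genes were, and 3 of the 4 (75.0%) were among the 6 of hermaphrodites. At tank-1 the sperm allele gave 88.7%, 89.7%, 89.7% and 83.8% against 55.9%, 59.7%, 54.2% and 56.1% (log2 ratio change 2.52 ± 0.23, adjusted p = 2.21e-10 by edgeR). At F25E5.1 it gave 90%, 88.0%, 90.7% and 88.0% in M+P-, with few M+P+ reads. At lido-7 it gave 97.6%, 89.6%, 76.2% and 85.0% against 33.3%, 64.3%, 61.9% and 47.6% (adjusted p = 0.0456), a call lost when any of 4 single libraries was left out. The call at ketn-1 rested on M+P+ replicate 3, the only M+P+ library with allele reads for it in number, and was lost without it (adjusted p = 1.00). At sma-1 the male shares of 52.4%, 62.7%, 60.8% and 57.3% overlapped those of 48.6%, 55.2%, 48.4% and 46.4% and were not called (adjusted p = 0.480).

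In L1 larvae of the first cross no member was called by edgeR among 218 tested, where 0.00684% of 14618 genes were called. At an unadjusted p under 0.05 by edgeR, 13 were higher and 8 lower, where 519 of 14618 genes were higher and 497 lower. DESeq2 called 0 members higher and 1 lower, and its share over all genes is not given here. The median log2 change was 0.07 over members and 0.03 over all genes. Members were more expressed in larvae, with a median of 6.74 CPM in M+P- and 5.44 CPM in M+P+ over all 300. The gene ketn-1 had 777, 682 and 471 CPM in M+P- larvae and 666, 966 and 892 CPM in M+P+, with overlapping groups. The allele share of RNA had a median of 52.6%, 52.4% and 56.5% in M+P- and 48.5%, 50.6% and 47.2% in M+P+, groups that did not overlap. Other eligible genes had medians of 48.9%, 50.2% and 48.5% in M+P- and 46.5%, 48.5% and 48.8% in M+P+. Set against other eligible genes of the same chromosome, the median member differed by −3.2, −1.9 and 1.8 points in M+P-. In M+P+ it differed by −3.2, −2.3 and −2.7 points, so by this measure the groups overlapped. No member of 58 was called in the edgeR test of this allele balance (0.0383% of all genes), and 0 were called by limma. At an unadjusted p under 0.05 by edgeR 1 member was higher, where 55 of 2613 genes were.

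**Figure D4:**
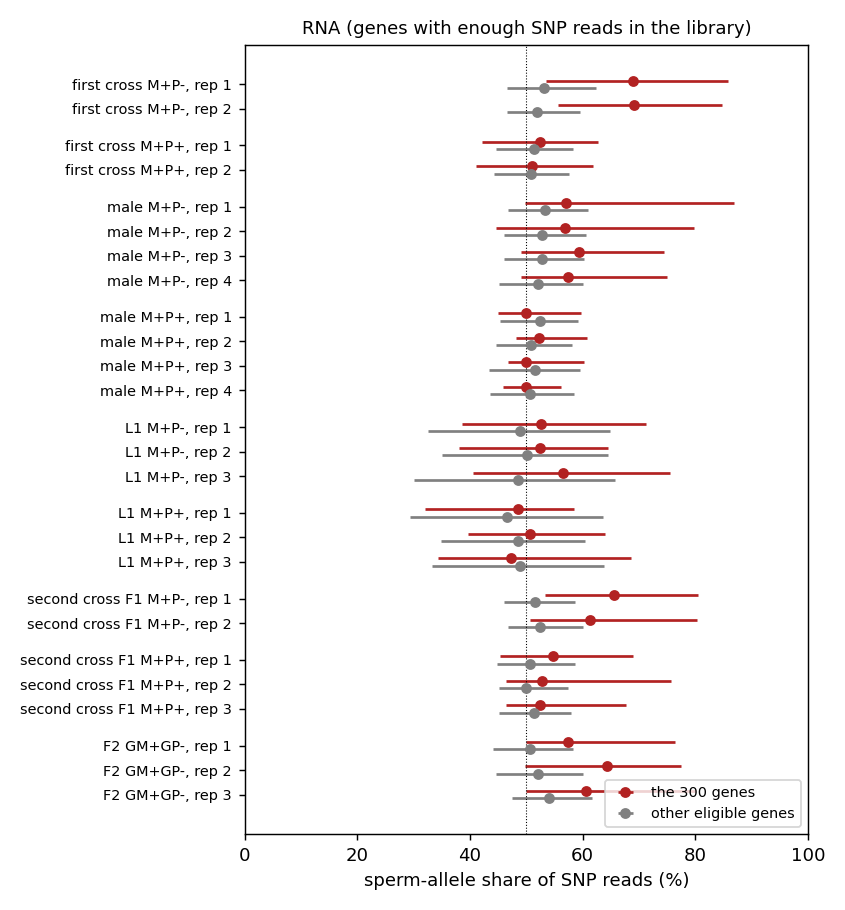
Median sperm-allele share of RNA reads (percent) in each library with allele counts, over members and over other eligible genes with at least 20 allele reads. M+P- and F2 germline libraries have member medians from 56.8% to 69.1%, and the M+P+ germline libraries from 50.0% to 54.8%.

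Fathers mutant for mes-3, whose mothers were heterozygous, had raised RNA of many of the same genes. In mes-3 against him-8 male germlines 46 of 152 members tested rose and 0 fell (30.3%), where 7.01% of 8873 genes rose, 1.32% fell and 8.33% were called in all, and 14.1% of other eligible genes rose. The median log2 change was 0.71 over members tested and 0.03 over all genes. Of these 46, 26 (56.5%) were among the 53 called in M+P- hermaphrodites (49.1% of those). The overlap over all genes called is not given here, so these shares describe members alone. Leaving out mes-3 replicate 2 lowered the count to 20, mes-3 replicate 1 to 28, and him-8 replicate 2 or mes-3 replicate 3 to 29 higher.

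The gene ketn-1 had 101, 62.9 and 64.9 CPM in mes-3 fathers and 0.705, 1.27 and 0.608 CPM in him-8 males (log2 change 6.38 ± 0.33, n = 3 against 3, adjusted p = 9.37e-05 by edgeR). Muscle markers other than ketn-1 summed to 354, 267 and 118 CPM against 125, 72.4 and 53.0 CPM, and 5 of 12 muscle markers tested were called higher, ketn-1 included. Neuron markers summed to 163, 145 and 115 CPM against 102, 87.3 and 90.4 CPM, with 3 of 9 tested called higher. Somatic gonad markers summed to 89.7, 102 and 85.9 CPM against 75.7, 50.9 and 53.9 CPM, with 2 of 4 called higher, and 2 of 10 sperm markers, spe-44 and fer-1, were called lower. The part of these cells in the members' RNA was not tested. F32B5.7 had 53.1, 54.3 and 45.6 CPM against 0.846, 0.564 and 1.98 CPM (log2 change 5.45 ± 0.34, adjusted p = 0.000202). The nuclear hormone receptor nhr-81 had 6.53, 6.48 and 3.35 CPM and no count in any him-8 library, and its mean was at least 37.7-fold higher at 3 counts over the group. F58D12.3 had 9.92, 7.01 and 7.17 CPM against 0.141, 0.141 and 0 CPM (adjusted p = 0.00183). None of these genes had overlapping groups. The calls of nhr-81 (adjusted p = 0.0704), qui-1 (0.0960) and acbp-7 (0.0885) were lost without mes-3 replicate 2, that of acbp-7 also without him-8 replicate 2 (0.0515), and that of qui-1 without 3 other single libraries as well, him-8 replicates 1 and 2 and mes-3 replicate 1.

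Some members had larger changes in fathers than in offspring, a difference that was not tested. The heterochronic gene lin-66 had 35.2, 31.4 and 24.9 CPM against 2.12, 0.847 and 1.06 CPM in fathers (log2 change 4.44 ± 0.32) and 156 and 102 CPM against 86.2 and 70.2 CPM in hermaphrodite offspring (log2 change 0.72 ± 0.15). The sex determination and dosage compensation gene sdc-3 rose in fathers, from 9.73, 10.9 and 2.89 CPM to 54.7, 53.8 and 41.3 CPM (log2 change 2.61 ± 0.40, adjusted p = 0.00842 by edgeR). In hermaphrodite offspring it was at 118 and 83.7 CPM in M+P- and 90.3 and 91.3 CPM in M+P+, groups that overlapped. The gene dlk-1 rose in both, with a log2 change of 3.85 ± 0.23 in fathers.

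**Figure D5:**
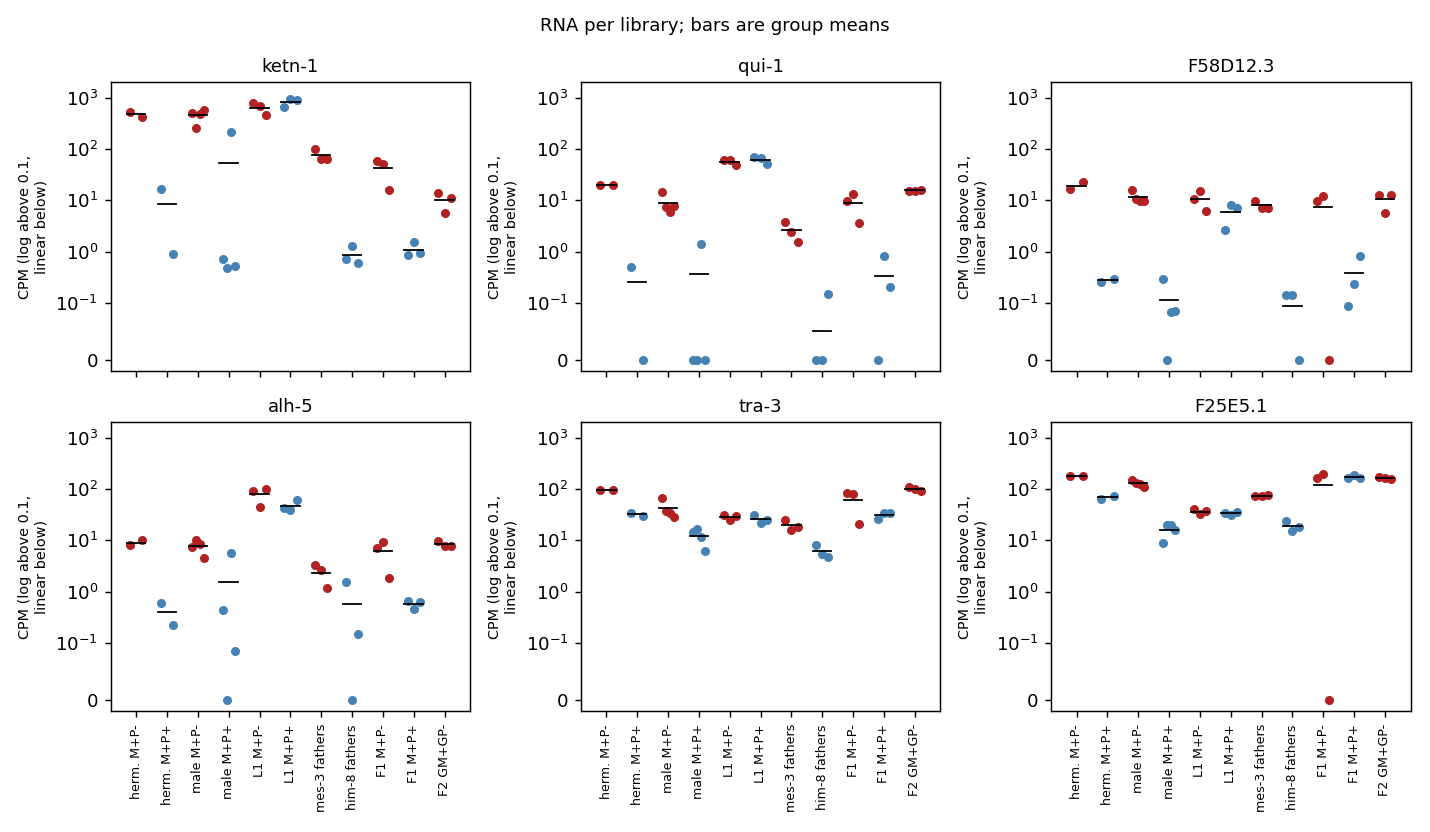
RNA level (CPM, log axis that is linear below 0.1) of ketn-1, qui-1, F58D12.3, alh-5, tra-3 and F25E5.1 in each RNA library, with 1 point per library and bars at group means, red for M+P-, F2 GM+GP- and mes-3 fathers and blue for M+P+ and him-8. In the hermaphrodite germlines of the first cross every M+P- point lies above every M+P+ point, as for F58D12.3 at 16.5 and 22.5 CPM against 0.254 and 0.298 CPM.

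In the second cross the RNA comparison of F1 groups turned on the M+P- library that stands apart. With all 6 libraries edgeR called 0 of 124 members and 0% of 7983 genes. DESeq2 called 14 members higher and 0 lower, and its share over all genes is not given here. At an unadjusted p under 0.05 by edgeR, 20 members were higher and 1 lower, where 213 of 7983 genes were higher and 81 lower. Without M+P- replicate 3 edgeR called 28 of 136 members higher and 0 lower (20.6%), where 3.16% of 8326 genes were called, with a median log2 change of 0.48. Of these 28, 26 (92.9%) were among the 53 of the first-cross hermaphrodites (49.1% of those). The overlap over all genes called in both crosses is not given here.

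The values per library show the split. The gene tra-3 had 85.3, 81.3 and 21.2 CPM in M+P-, replicate 3 last, and 26.6, 33.8 and 34.4 CPM in M+P+. The gene tank-1 had 239, 249 and 47.2 CPM against 72.6, 79.1 and 59.2 CPM, and alh-5 had 7.14, 9.34 and 1.88 CPM against 0.659, 0.467 and 0.624 CPM. In each of these genes M+P- replicates 1 and 2 lay far above all M+P+ libraries, while the last library lay below M+P+ for tra-3 and tank-1. The gene ketn-1 had 58.5, 51.6 and 15.7 CPM against 0.847, 1.52 and 0.935 CPM, without overlap (log2 change 5.19 ± 0.76, adjusted p = 0.334 by edgeR). Some genes that rose in the first cross were as high in both F1 groups. F25E5.1 had 162, 193 and 0 CPM in M+P- and 165, 192 and 167 CPM in M+P+, and T10D4.6 had 68.1, 67.1 and 106 CPM against 78.7, 73.0 and 69.8 CPM. Muscle markers other than ketn-1 summed to 130, 186 and 88.4 CPM against 67.1, 120 and 67.3 CPM. Intestine markers summed to 1801, 3064 and 26.7 CPM against 661, 1541 and 404 CPM, so they were high in the same M+P- libraries that carried the 28 calls. The part of both tissues was not tested.

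The 2 F1 M+P- libraries with allele counts had median sperm-allele shares of RNA of 65.5% and 61.3%, against 54.8%, 52.8% and 52.5% in M+P+. For T10D4.6 the share was high in both groups, at 90.9% and 90.3% in M+P- and 81.9%, 76.9% and 84.5% in M+P+, where the total level did not separate the groups either. For lido-7 it was 79.2% and 75.0% against 45.9%, 47.4% and 38.5%, without overlap.

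F2 germlines had raised RNA of members when set against F1 M+P+. Of 140 members tested 33 rose and 0 fell (23.6%), where 2.54% of 8296 genes rose, 0.663% fell and 3.21% were called in all. Of the other eligible genes 5.1% rose and 1.43% fell. With the replicate number as a block, 40 members rose and 1 fell, and 7.64% of all genes were called. The median log2 change was 0.32 over members and −0.01 over all genes. Of the 33, 31 (93.9%) were among the 53 of the first-cross hermaphrodites (58.5% of those), with which this comparison shares no library. The same overlap over all genes called is not given here.

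The gene qui-1 had 15.5, 15.4 and 16.2 CPM in F2 and 0, 0.818 and 0.208 CPM in F1 M+P+ (log2 change 5.55 ± 0.46, n = 3 against 3, adjusted p = 0.000117 by edgeR). Y37A1A.2 had 4.31, 8.56 and 5.74 CPM against 0.0941, 0.467 and 0.104 CPM (log2 change 4.77 ± 0.50, adjusted p = 0.000468). F58D12.3 had 13, 5.80 and 12.6 CPM against 0.0941, 0.234 and 0.831 CPM (log2 change 4.70 ± 0.54, adjusted p = 0.000797). In all 3 genes each F2 library was above each F1 M+P+ library. The gene tra-3 had 108, 102 and 90.9 CPM (log2 change 1.64 ± 0.11, adjusted p = 4.2e-05) and tank-1 281, 186 and 238 CPM (log2 change 1.71 ± 0.15, adjusted p = 0.00015), close to their first-cross M+P- levels. The level of ketn-1 was 13.9, 5.62 and 11.3 CPM, below each F1 M+P- library and above each F1 M+P+ library, and it was called against M+P+ (log2 change 3.2 ± 0.39, adjusted p = 0.00124). Its H3K27me3 allele balance in F2 was, however, among the least changed from F1 M+P+ of the members tested. Muscle markers other than ketn-1 summed to 147, 145 and 138 CPM in F2, above the 67.1 to 120 CPM of F1 M+P+, with ketn-1 and ttn-1 called of 12 tested. Neuron markers summed to 218, 224 and 216 CPM against 180 to 199 CPM, with 5 of 12 called higher. Intestine markers summed to 754, 1810 and 862 CPM against 661, 1541 and 404 CPM, with 1 of 10 called higher. Their part in the members' rise was not tested. F25E5.1 was level in F2, at 172, 167 and 157 CPM (log2 change −0.11 ± 0.07, adjusted p = 0.499).

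RNA in F2 leaned to the sperm allele as well. The median sperm-allele share over members was 57.4%, 64.3% and 60.5% in the 3 F2 libraries, against 50.6%, 52.0% and 54% for other eligible genes. For tank-1 it was 87.5%, 78.0% and 80.2%, and for T10D4.6 82.2%, 84.9% and 82.1%. The share of lido-9 was lower, at 57.4%, 48.6% and 65.5%.

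Shares of H3K36me3 differed in the opposite direction from those of H3K27me3. In the first cross the median sperm-allele share of H3K36me3 over members was 64.5% and 72.7% in M+P- and 57.1% and 57.5% in M+P+, against 58.3%, 64.7%, 52.9% and 55.4% for other eligible genes. With replicates summed it was higher in M+P- for 164 of 232 members (70.7%), by a median of 12.3 points, against 63.0% and 6.5 points for other genes. Against M+P+ replicate 1 alone, without the library that stands apart, it was higher for 143 of 204 members (70.1%), by 11.2 points, against 65.5% and 6.9 points. Both M+P- libraries lay above both M+P+ libraries for 56 of 193 members (29.0%), where this held for 22.4% of all genes with enough reads and 25.96% of the other eligible genes, so the members' share was near that of eligible genes. The direction was thus shared by most eligible genes, with the larger median among members. The score per gene deposited by the authors, a z-score, gave H3K36me3 medians of 0.46 in M+P- and 0.14 in M+P+ over 289 members, against −0.25 and −0.29 over other eligible genes, so members carried more of this mark in both groups.

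The gene ketn-1 had 90.5% and 90.6% of its H3K36me3 reads on the sperm allele in M+P- and 65.3% and 61.1% in M+P+ (log2 ratio change 2.47 ± 0.41, adjusted p = 0.326 by edgeR). The share of tank-1 was 82.6% and 82.7% against 44.3% and 71.9%, and that of qui-1 82.4% and 85.7% against 42.9% and 9.1%. In these genes the M+P- libraries were close and the groups did not overlap. In the allele-balance test 0 of 216 members and 0% of all genes were called by edgeR, and 0 by limma. At an unadjusted p under 0.05 by edgeR, 16 members were higher and 0 lower, where 189 of 8285 genes were higher and 48 lower. Without M+P+ replicate 2 members were called higher, in a fit with a single control library. Without M+P+ replicate 1, which leaves the library that stands apart as the only control, members were called in both directions. Shares over all genes are not given here for these fits.

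Whole-gene H3K36me3 in the first cross gave 0 calls among 299 members and 0% of all genes by edgeR, and 0 members by DESeq2. At an unadjusted p under 0.05 by edgeR, 11 members were higher and 0 lower, where 90 of 24469 genes were higher and 42 lower. The median log2 change was 0.36 over members and −0.09 over all genes. Leaving out a replicate here leaves a group with a single library. With M+P+ replicate 2 left out members were called, all higher, and the share over all genes is not given here. With its replicate 1 left out, 99 were called higher and 37 lower, where 45.2% of all genes were called.

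In the second cross 10 of 299 members were called higher in F1 M+P- and 0 lower (3.34%), where 0.121% of 24018 genes were called, 29 in all. The gene qui-1 had 246 and 191 CPM of H3K36me3 in M+P- and 57.3 and 96.1 CPM in M+P+ (log2 change 1.47 ± 0.20, n = 2 against 2, adjusted p = 0.00265 by edgeR). F58D12.3 had 174 and 159 CPM against 51.6 and 63.6 CPM (log2 change 1.49 ± 0.18, adjusted p = 0.0018), and alh-5 53.3 and 54.8 CPM against 13.1 and 21.7 CPM (log2 change 1.60 ± 0.28, adjusted p = 0.0242). The groups did not overlap in these genes, and their first-cross libraries stood in the same order, with qui-1 at 213 and 209 CPM in M+P- and 90.2 and 32.6 CPM in M+P+. The rest were Y73B6BL.27, Y37A1A.2, T05C3.6, dlk-1, tank-1, ketn-1 and egal-1, the homolog of the fly RNA localization gene Egalitarian. In F2 the level was also high, at 190 and 195 CPM for qui-1, 178 and 143 CPM for F58D12.3 and 60.9 and 53.9 CPM for alh-5. The count was 4 when replicate 1 of either group was left out and 21 when replicate 2 of M+P+ was. The calls of Y37A1A.2 and Y73B6BL.27 were lost without either of the first 2 (adjusted p from 0.0528 to 0.714), and those of alh-5 (log2 change 1.29, adjusted p = 0.345) and egal-1 (1.09, adjusted p = 0.0794) without M+P+ replicate 1.

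The allele share of H3K36me3 in the second cross was higher in M+P- for 144 of 220 members (65.5%), by a median of 7.4 points, against 63.9% and 5.3 points for other genes, close to each other. Both M+P- libraries lay above both M+P+ for 54 of 214 members (25.2%), where this held for 23.1% of all genes with enough reads and 26.3% of the other eligible genes, so members did not stand out. In F2 the share of ketn-1 was down to 25.8% and 48.7%, from 84.7% and 75.1% in F1 M+P-, while tank-1 held 80.4% and 75.0% and Y73B6BL.27 92.8% and 87.2%.

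Members differed in whether the loss of H3K27me3 was accompanied by RNA. The 52 that rose in first-cross hermaphrodite RNA had been chosen with a median fall in H3K27me3 share of 26.4 points, against 25.2 points for the 87 tested without a call and 25.0 points for the 160 not tested. These falls were fixed from below by the choice, and nothing is read from their likeness. In second-cross F1, outside the choice, the median fall in H3K27me3 share was 8.60 points in the 52, 11.4 in the 87 and 9.09 in the 160. Whole-gene H3K27me3 there had a median log2 change of −0.18 in the 52, −0.005 in the 87 and −0.10 in the 160. The rise in sperm-allele share of H3K36me3 had a median of 21.8 points in the 52, 4.35 points in the 87 and 15.9 points in the 160. These medians used both M+P+ libraries and covered 52, 87 and 157 members, a wider set than the 232 compared above. Against M+P+ replicate 1 alone, without the library that stands apart, the median was 25.3 points over 42 of the 52. For 68 of the 87 it was 4.96 points. For 99 of the 160 it was lower than with both libraries, with quartiles of −6.04 and 23.7 points. In the second cross, from other worms, the median rise was 16.7, 3.31 and 7.97 points. Total H3K36me3 of F1 M+P- was above M+P+ in 47 of the 52, with a median log2 change of 0.73, against −0.07 in the 87. In F2 RNA the median log2 change was 1.68 in the 52 and 0.04 in the 87, and in fathers 2.28 and 0.62. Their larval RNA in M+P+ had medians of 22.3, 18.4 and 0.806 CPM. These are descriptions, since the 52 were picked by their own RNA. Over all RNA comparisons of M+P- with M+P+ or of fathers, 227 members were called in none, 43 in 1, 24 in 2 and 6 in 3. The 6 were F58D12.3, nhr-81, Y54G2A.37, T05C3.6, F25E5.1 and dex-1. The 227 include members not tested in some of these comparisons. No member was called in L1 larvae or, with all libraries, in second-cross F1. Such counts over all genes are not given here.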

How the data were processed

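The authors deposited raw counts per gene for RNA and CUT&RUN and, per the file headers, counts of reads on the oocyte and sperm alleles. The deposited score per gene of each CUT&RUN library is a z-score, per the file headers, and was used only as a level. The sources used here give neither its formula nor whether counting used strand, so 110 members that overlap another gene have uncertain counts. Reads were mapped to ce10, per the labels. Bowtie2 2.3.5.1, TopHat2 2.1.1, HTSeq, DESeq and DESeq2 1.22.2 are named, with no role, per the submitters' processing notes.

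Counts were tested with edgeR 4.0.16 (quasi-likelihood, TMM scaling, filterByExpr, Benjamini-Hochberg adjustment over all genes, threshold 0.05) in R 4.3.3, within the groups compared. Allele balance was tested as the difference in log2 sperm to oocyte ratio between groups, with library as a term, for genes with a mean of at least 20 allele reads per library. Alternatives were DESeq2 1.42.0, its size factors in edgeR, limma 3.58.1 on log2 ratios with a pseudocount of 0.5, no filter on low counts, other read minimums (10 and 50), a replicate block, leaving out each library, and other member rules. The procedures were tested on simulated data. CPM were computed from the deposited counts.

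Labels call the samples replicates, and p-values measure the spread between them. None of 47 replicate pairs held the same library (chi-square per gene from 3.88 to 265). Same-numbered libraries deviated together in F2 against F1 M+P+ RNA (correlations 0.30, 0.389 and 0.128), and the blocked counts stand beside that result. The members and lists were chosen with earlier results of these data known. Named genes are those with the largest falls in the choice, the 12 largest risers and the fallers in first-cross hermaphrodite RNA, the 6 largest called changes elsewhere, the smallest H3K27me3 allele changes and the genes called most often. The genes tra-3, dlk-1, lin-66, sdc-3, nas-14 and lido-8 were chosen after their values were seen.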

Additional observations from a re-analysis of the deposited data

Results flagged for a closer look

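Among the 20 male germline groups of 4 libraries examined, 3 held a library far from the other 3, where chance gives about 1 in 20. F58D12.3 in M+P- males stood at 15.69 CPM in replicate 1 and at 9.63 to 10.54 CPM in the others. Y49F6A.5 in M+P+ males stood at 0.07252 CPM in replicate 1, which is 1 read, with the others at 0. In the same group nhr-81 stood at 0.08488 CPM in replicate 3, again 1 read, with the others at 0, so neither of these 2 shows more than a single read.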

How the results depend on the processing

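Values here are members called, as percent of the list, unless named otherwise. In this paragraph they stand without a share over all genes, so they describe the list alone. Over 17 comparisons 170 alternative values stayed within 1.5 times of the value reported, 52 moved further and none changed direction. Of the single genes, 405 values kept their call and 88 lost it. DESeq2 gave 9.33% for male RNA, 0.333% for L1 RNA (as did no filter on low counts), 4.67% for F1 RNA and 6.67% for F1 H3K36me3 (as did no filter), against 3.33%, 0%, 0% and 3.33% reported. Male RNA without the filter gave 2.00%. limma on log2 ratios gave 0% for RNA allele balance in hermaphrodites and 0.667% in males, and a mean of at least 50 allele reads gave 0.667% in males. Taking the 150 genes with the largest fall gave 5.33% for male RNA and F1 H3K36me3, 16.7% for F2 RNA, 8% for F2 H3K27me3, and 3.33% and 2.67% for RNA allele balance in hermaphrodites and males. Members that overlap no other gene, an alternative chosen after seeing the data, gave 5.53% for male RNA and 8.29% for F2 H3K27me3.

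Leaving out 1 library gave 10% to 16.0% for hermaphrodite RNA, 0.333% to 9.33% for male RNA, 0% to 0% for L1 RNA, 6.67% to 12.3% for fathers, 0% to 9.33% for F1 RNA and 7.67% to 10.7% for F2 RNA. It gave 0% to 0% for F1 H3K27me3, 5.0% to 14.0% for F2 H3K27me3, 0% to 45.3% for first-cross H3K36me3 and 1.33% to 7% for F1 H3K36me3. RNA allele balance ran from 0% to 1.33% in hermaphrodites, 1.0% to 2.0% in males and 0% to 0% in L1. Allele balance of H3K36me3 ran from 0% to 11%, and that of H3K27me3 from 0% to 6.33% in F1 and, in F2, from 0% to 7.33% against M+P+ and 0% to 0.333% against M+P-. The report names the libraries, and a share over all genes stands beside such a count only where it gives one.

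With the replicate number as a block the percent was 24.3% for fathers (70 higher, 3 lower, with 22.8% of all genes called against 8.33% without it), 18.3% for F1 H3K36me3 (54 higher, 1 lower, with 4.73% of all genes called against 0.121%), 1.67% for male RNA, 1.00% for first-cross H3K36me3 and 0.333% for its allele balance. In these the numbers pair samples by name alone (correlations of deviations from -0.313 to 0.804 in males and -0.046 to 0.666 in fathers). In F2 RNA same-numbered libraries deviated together, though no label pairs them. The block there called 40 members higher and 1 lower, while calls over all genes went from 3.21% to 7.64% (393 higher, 241 lower).

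Groups of 2 to 4 libraries and the few allele reads per gene limit what can be called. In the hermaphrodite comparisons 124 to 140 of 300 members had enough RNA reads to be tested, in male offspring 169 and in fathers 152.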
